A study of Mus musculus with 14 samples.

Results

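Core macrophage identity genes were described across sorted single cells of melanoma-bearing mice: Lyz2, Csf1r, Adgre1, Mrc1, Cd68, Ctss, Spi1, Ly86 and Aif1. They are the rows of the raw count table with these 9 symbols, of 21138 genes in all, and all 9 are listed in it.

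Macrophages and their blood precursors, the monocytes, are phagocytes of the myeloid lineage. Their development depends on the transcription factor PU.1, encoded by Spi1, which binds purine-rich DNA with a GGAA core, and on signalling through the receptor encoded by Csf1r. In lung, alveolar macrophages live in the airspaces and clear surfactant and debris, while monocytes and other macrophages occupy blood and tissue. Of the remaining genes, Lyz2 encodes lysozyme M, a secreted bactericidal enzyme of myeloid cells. Ctss encodes cathepsin S, a lysosomal protease that also trims the invariant chain of MHC class II, and Cd68 encodes a heavily glycosylated lysosomal membrane protein. Adgre1 encodes the adhesion receptor F4/80, Mrc1 the mannose receptor CD206, Ly86 the secreted protein MD-1 that pairs with the receptor RP105 of B cells and myeloid cells, and Aif1 the calcium-binding protein IBA1.

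RNA of 648 single cells was read with Smart-seq2, which makes a full-length library from each sorted cell. The 9 tumor-bearing samples are from C57BL/6J females, 6 to 8 weeks old, injected with B16F10, a C57BL/6 melanoma line that carried a fluorescent label. Their blood and lung cells were sorted by tumor and host markers whose names the labels omit, into the classes DP (450 cells, 9 samples), CTC (43 cells, 5 samples) and WBC (46 cells, 6 samples). The series asks about circulating cells that may be tumor-leukocyte hybrids. The controls were 1 sample each of Duplike (24 cells), CDP (18), PltLike (24), B16F10 (22, given the cell type CTC) and naive WBC (21), and all but B16F10 carry the treatment label naive and the same strain, sex and age as the tumor-bearing mice. Nothing in the labels ties a sample to an animal of its own, so the spread behind a p-value can be technical. Total counts ranged from 0.0205 to 104 Mcounts (mega-counts) a cell, with a median of 15.8 Mcounts over all cells but 1.05 Mcounts in naive WBC. No cell name was shared by samples.

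Because the DP class mixed unlike cells, cells were also split by the summed CPM (counts per mega-count) of 8 melanocyte genes, none of them a macrophage gene: Pmel, Tyrp1, Dct, Mlana, Tyr, Slc45a2, Gpr143 and Trpm1. Cells at 1000 CPM or more were called tumor-high and the others tumor-low. This is a range of a score and not a cell type, and 38 cells, 28 of them DP, lay between 500 and 2000 CPM. Of DP cells, 154 were tumor-low (87 lung, 67 blood) and 296 tumor-high (90 lung, 206 blood). All 43 CTC were tumor-high, and 42 WBC were tumor-low. Of the controls, all 24 Duplike, 18 CDP, 24 PltLike and 22 B16F10 cells were tumor-high. Their median summed melanocyte levels were 28622, 32602, 26652 and 32721 CPM in that order. Of the 21 naive WBC 20 were tumor-low.

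Promoter windows are shown for Ctss, Mrc1, Cd68, Aif1 and Lyz2, members that were higher together in DP sums than in CTC sums, to set the 4 that hold GAGGAA, a purine-rich sequence with the GGAA core, beside 1 that lacks these 6 letters. The sequences are from RefSeq (build GRCm38.p6, the mm10 assembly) and run from 250 bases before the annotated start to 30 bases after it, 5′ to 3′ on the gene's strand. Capitals mark GAGGAA or its reverse complement TTCCTC. The table held 6 of the 9 members, also Ly86, and 4 of the 6 carried the motif on either strand, beside 26.0% of 32851 promoters of the same length. The longer GAGGAAGT, which overlaps it, was in Ctss alone among the 6, beside 2.82% of all promoters. A match is a description of these letters and not a binding site.
Ctss (chr3:95526536-95526815, plus strand): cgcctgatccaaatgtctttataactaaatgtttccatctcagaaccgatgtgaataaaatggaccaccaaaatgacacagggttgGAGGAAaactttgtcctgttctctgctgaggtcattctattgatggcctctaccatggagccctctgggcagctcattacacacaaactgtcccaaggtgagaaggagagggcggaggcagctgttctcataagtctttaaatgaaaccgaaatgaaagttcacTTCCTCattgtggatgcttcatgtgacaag
Mrc1 (chr2:14229164-14229443, plus strand): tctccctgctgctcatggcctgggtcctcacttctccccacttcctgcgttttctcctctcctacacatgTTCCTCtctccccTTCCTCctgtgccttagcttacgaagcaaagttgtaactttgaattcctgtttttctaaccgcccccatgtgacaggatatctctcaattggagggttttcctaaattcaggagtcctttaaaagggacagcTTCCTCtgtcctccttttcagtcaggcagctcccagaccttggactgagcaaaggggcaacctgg
Cd68 (chr11:69666141-69666420, minus strand): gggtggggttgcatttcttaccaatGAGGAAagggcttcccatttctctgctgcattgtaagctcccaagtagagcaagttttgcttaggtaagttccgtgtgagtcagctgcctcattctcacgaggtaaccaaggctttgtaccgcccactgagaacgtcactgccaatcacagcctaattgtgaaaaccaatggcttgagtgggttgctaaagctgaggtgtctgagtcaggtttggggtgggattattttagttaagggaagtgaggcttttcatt
Aif1 (chr17:35176023-35176302, minus strand): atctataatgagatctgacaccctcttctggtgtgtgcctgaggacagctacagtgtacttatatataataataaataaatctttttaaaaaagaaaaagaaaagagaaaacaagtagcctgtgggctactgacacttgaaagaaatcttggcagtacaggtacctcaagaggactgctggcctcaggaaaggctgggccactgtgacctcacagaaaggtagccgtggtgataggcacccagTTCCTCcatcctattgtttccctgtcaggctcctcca
Lyz2 (chr10:117282243-117282522, minus strand): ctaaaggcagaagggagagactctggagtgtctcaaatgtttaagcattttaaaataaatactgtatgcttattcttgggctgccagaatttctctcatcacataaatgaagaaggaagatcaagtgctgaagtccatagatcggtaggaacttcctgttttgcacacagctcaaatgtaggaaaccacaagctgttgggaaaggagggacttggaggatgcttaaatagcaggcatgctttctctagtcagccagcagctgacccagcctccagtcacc
Mrc1 held 3 copies, all on the opposite strand, Ctss 2, and Cd68 and Aif1 1 each. The copies nearest the start were those in Ctss and Aif1, on the opposite strand.

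In tumor-low DP cells the genes of the phagocyte's lysosome were the most widely detected. At 10 CPM or more, Lyz2 was in 151 of 154 cells (98.1%), Ctss in 147 (95.5%) and Cd68 in 144 (93.5%). Spi1 was in 137 cells (89.0%). Of the genes of surface receptors, Csf1r was in 133 cells (86.4%), Adgre1 in 108 (70.1%) and Mrc1 in 105 (68.2%). Ly86 and Aif1 were in the fewest, 90 (58.4%) and 44 (28.6%). With each cell thinned to 200000 counts, where 10 CPM is 2 counts, these shares were 98.0%, 96.1%, 93.5%, 90.2%, 86.9%, 71.9%, 67.3%, 60.1% and 28.8% in the same order of genes, over 153 cells.

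In tumor-low WBC, which had a lower median depth (5.15 Mcounts, against 8.02 Mcounts in tumor-low DP), Lyz2 was at 10 CPM or more in 40 of 42 cells (95.2%) and Ctss in 38 (90.5%). Mrc1 was in 13 (31.0%) and Csf1r in 25 (59.5%). The melanoma line itself gives the background: 0 of 22 B16F10 cells held Csf1r, Adgre1, Mrc1, Ctss, Spi1, Ly86 or Aif1 at this level, at a median depth of 14.5 Mcounts, where 0 of 22 allows a share of up to 13.6% by a floor of 3 cells (exact 95% upper limit 15.4%). Lyz2 was at 10 CPM or more in 2 of 22 B16F10 cells (9.09%, and 22.7% after thinning) and Cd68 in 10 (45.5%), with 28.7 CPM of Cd68 in the B16F10 sum. Of CTC, 19 of 43 (44.2%) held Lyz2 and 8 (18.6%) Cd68 at this level, at a median depth of 22.1 Mcounts.

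**Figure D1:**
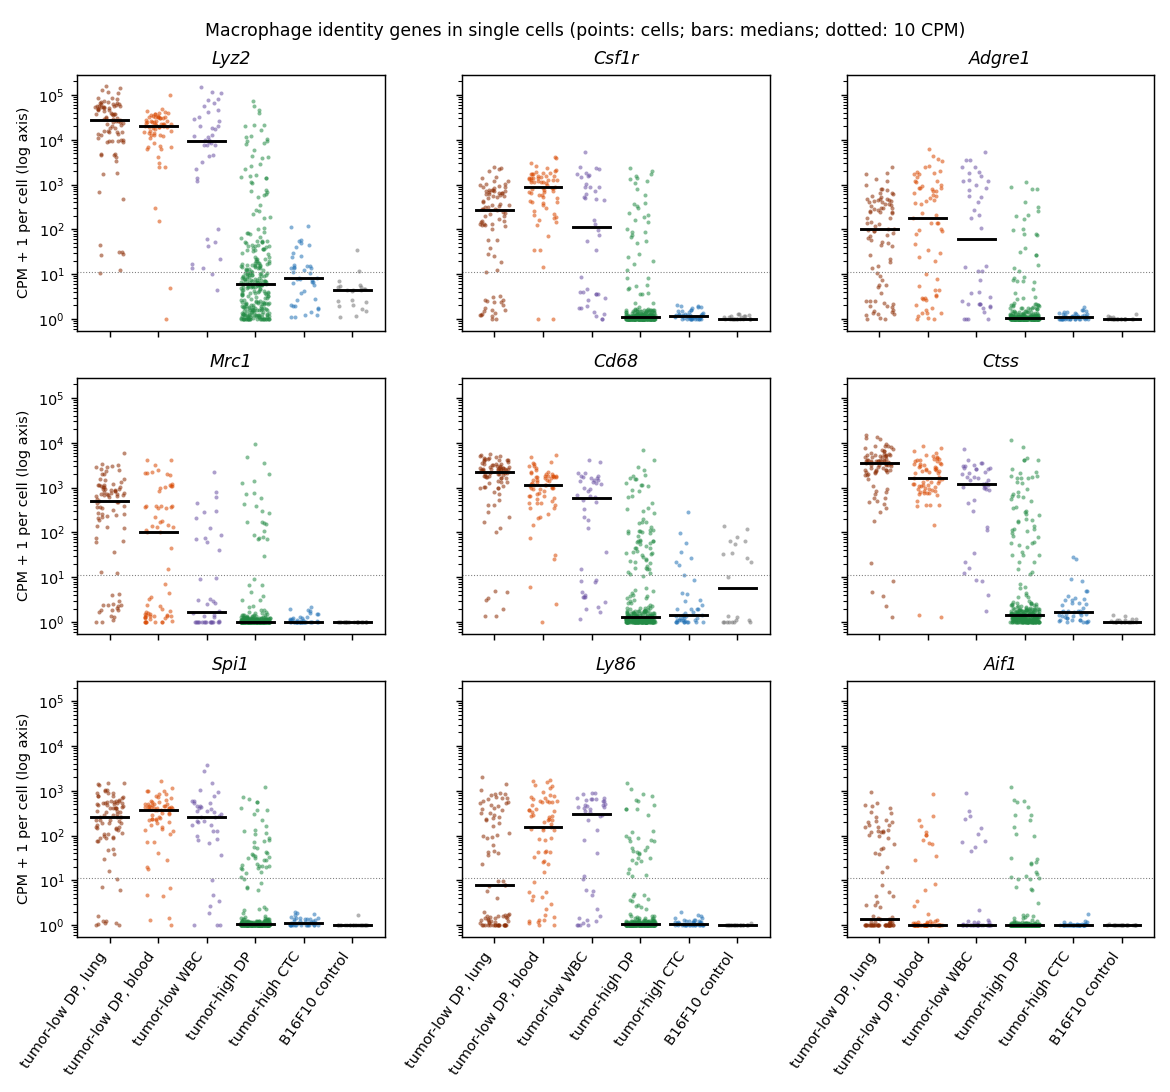
Level of each gene in single cells as CPM + 1 on a log axis, for 6 groups of cells, with a bar at the median and a dotted line at 10 CPM. In tumor-low DP cells Lyz2 reached a median of 28005 CPM in lung and 20729 CPM in blood, while all 9 medians of tumor-high CTC, pooled over tissues, lay below 10 CPM. In lung CTC alone the Lyz2 median was 28.7 CPM.

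Per kilobase of exon, the summed counts of tumor-low DP cells gave Lyz2 the highest level, at 22732 CPM per kb. Ctss followed with 2347 CPM per kb and Cd68 with 1578 CPM per kb. Adgre1 (188 CPM per kb), Spi1 (139), Csf1r (117), Mrc1 (89.2), Ly86 (66.5) and Aif1 (28.4) were lower. In the sum of tumor-low WBC the first 6 places per kb were the same, Lyz2 again first with 17335 CPM per kb, and Ly86 (91.3 CPM per kb) stood above Mrc1 (33.0 CPM per kb). The order in the median cell differed after Cd68. In tumor-low DP Spi1 (117 CPM per kb) and Csf1r (87.3) stood above Adgre1 (42.7). In tumor-low WBC Spi1 (95.3) and Ly86 (84.0) stood above Csf1r (19.5) and Adgre1 (18.5).

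All 9 genes were higher in DP than in CTC. For this and the next comparisons, counts were summed over the cells of each sample, tissue and class, and levels are CPM averaged over the tissues of a sample. In such sums fewer cells of a type and less RNA per cell cannot be told apart. Lyz2 had 544 CPM in the lowest, 9496 CPM in the median and 34913 CPM in the highest of the 9 DP samples, against 12.7, 2.74, 30.2, 18.2 and 2.44 CPM in the 5 CTC samples. Csf1r had 24.7, 220 and 504 CPM in the lowest, median and highest DP sample, against 0.255, 0.0351, 0.158, 0.350 and 0.175 CPM in CTC. Aif1 had 1.56, 12.1 and 53.9 CPM in the lowest, median and highest DP sample, and in CTC 3 of 5 samples were at 0, with 28 counts in all. DP samples lay above CTC samples without overlap for all 9 genes, as they did for 428 of 12595 genes tested (3.4%).

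Of 12595 genes, 737 (5.85%) were called by edgeR's quasi-likelihood test at an adjusted p under 0.05 (Benjamini-Hochberg), all as higher in DP, and 9 of 9 members were among them. The median log2 difference of the members was 9.04, beside 0.21 over all genes tested. Ly86 was higher by 9.40 ± 1.04 on the log2 scale (SE, adjusted p = 3.44e-06) and Csf1r by 9.21 ± 1.18 (adjusted p = 1.33e-05). Cd68, the gene that B16F10 cells also express, had the smallest log2 difference of the 9, 4.71 ± 0.97 (adjusted p = 0.00296). Aif1 had a log2 difference of 11.02 ± 2.42 (adjusted p = 0.00499), which rests on the few CTC counts and was not called without replicate 3. Differences were positive in 5 of 5 samples for 8 genes and in 4 of 5 for Aif1, in tissues that held both classes.

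The surrounding lists hold no member and were chosen as markers and pathway partners, with earlier results of these data known. Of their genes, 11 of 14 macrophage genes, 7 of 10 monocyte genes, 7 of 12 alveolar macrophage genes and 9 of 16 CSF1R pathway genes were higher in DP. The share over all genes tested was 5.85%. Tyrobp, which encodes the adaptor DAP12 of myeloid receptors, was higher by 8.96 ± 0.98 (adjusted p = 3.44e-06). Csf2rb, the shared beta chain of the GM-CSF receptor, was higher by 9.92 ± 1.19 (5.98e-06), the Fc receptor gene Fcgr3 by 9.27 ± 1.13 (6.83e-06) and the complement gene C1qb by 9.04 ± 1.18 (1.63e-05), all as log2 differences with edgeR's adjusted p. The share of DP cells that are tumor-low differed between these sums. It was 3 of 33 blood and 6 of 7 lung DP cells in replicate 1, and 31 of 34 lung DP cells in replicate 3. Its part in the result was not tested.

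CTC were lower than WBC in all 9 genes, in a comparison that shares its CTC with the one before. Lyz2 averaged 13.2 ± 11.6 CPM in CTC (SD, n = 5 samples) and 25942 ± 17808 CPM in WBC (n = 6). Spi1 averaged 0.162 ± 0.0837 CPM in CTC and 381 ± 84.8 CPM in WBC. Of 12595 genes 26.6% were called, 10.6% as lower in CTC, and the 9 members were among those lower, with a median log2 difference of -12.30 beside 0.74 for all genes. Ly86 fell by 12.54 ± 1.13 on the log2 scale in CTC (edgeR's adjusted p = 4.55e-08) and Cd68, again the smallest, by 7.43 ± 1.02 (8.95e-06). CTC samples lay below WBC samples without overlap for 7 of 9 members, all but Mrc1 and Aif1, and for 4.84% of all genes tested. The macrophage list was lower in 14 of 14 genes.

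Of the 9 genes, 6 were lower in DP as a whole class than in WBC. Adgre1 had 14.3, 173 and 459 CPM in the lowest, median and highest DP sample, against 210, 884 and 1934 CPM in the lowest, median and highest WBC sample. Spi1 averaged 120 ± 115 CPM in DP (SD, n = 9) and 381 ± 84.8 CPM in WBC (n = 6). Mrc1 ran the other way in its means, 229 ± 224 CPM in DP and 135 ± 220 CPM in WBC, with overlapping samples.

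Of 12595 genes 20.5% were called in DP against WBC, 2.91% as lower, and 6 of 9 members were lower. With no replicate block 7 members and 6.65% of all genes were lower, with 15.7% higher in place of 17.6%, and the median log2 difference was -2.59 over the members and 0.21 over all genes. In the fit with the block, Adgre1 fell by 4.42 ± 1.29 on the log2 scale (edgeR's adjusted p = 0.0171), Lyz2 by 3.64 ± 1.08 (0.0192), Spi1 by 3.43 ± 0.91 (0.00983), Csf1r by 3.31 ± 0.94 (0.0145), Ly86 by 3.14 ± 0.77 (0.00638) and Cd68 by 2.72 ± 0.87 (0.0290). Ctss had a log2 difference of -2.64 (95% interval -4.68 to -0.60, adjusted p = 0.0595), Aif1 -1.19 (-5.42 to 3.03) and Mrc1 -0.35 (-3.05 to 2.34). The median log2 difference over all genes was 1.17, and 0.95 with another scaling (RLE size factors), beside a members' median of -3.14, or -3.42 with RLE.

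The tissues gave unlike values, a difference that was not tested. In blood cells alone 7 of 9 members were lower, beside 4.6% of 12375 genes, with a median log2 difference of -4.89, against 1.66 over all genes. In lung cells alone edgeR called none, of 0 genes called in all (1473 at an unadjusted p under 0.05), and the median was 0.24, against 2.45 over all genes, with Lyz2, Adgre1, Mrc1, Cd68, Ctss and Aif1 above 0. With sums of at least 5 cells none of the 9 was called, at a median of -2.14, and 37 of 13569 genes were lower in DP. Without replicate 5 the count of members was 2, without replicate 6 it was 3, and without replicate 1 or 3 it was 4. Over all genes, 141 of 12791, 242 of 12680, 244 of 12679 and 292 of 12955 were lower without replicates 5, 6, 1 and 3, in that order. With all replicates 366 of 12595 were lower. The share of tumor-low cells differed between the tissues, at 67 of the 273 blood DP cells and 87 of the 177 lung DP cells, and its part was not tested. The CSF1R list was lower in 3 of 16 genes, among them Tyrobp by 3.59 ± 0.77 on the log2 scale (adjusted p = 0.00272), the macrophage list in 4 of 14 with Fcgr3 by 3.51 ± 0.90 (0.00806), and the monocyte list in 2 of 10. Those 2 were Fn1, which encodes fibronectin and fell by 4.51 ± 0.85 (0.000955), and Plac8, which fell by 4.20 ± 1.04 (0.00668).

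Among tumor-low cells, DP and WBC samples overlapped for all 9 genes, and no member was called. Over all genes tested, 0.166% lay above and 0.0518% below the WBC samples without overlap. Lyz2 averaged 29567 ± 16991 CPM in tumor-low DP (SD, n = 9) and 26150 ± 18042 CPM in tumor-low WBC (n = 6). Csf1r averaged 629 ± 348 CPM in tumor-low DP and 692 ± 372 CPM in tumor-low WBC. Mrc1 had the larger values in DP, with 103, 603 and 1818 CPM in the lowest, median and highest tumor-low DP sample, against 0.175, 47.5 and 568.3 CPM in tumor-low WBC. Adgre1 lay lower in DP, at 180, 289 and 1164 CPM, against 210, 909 and 1934 CPM in WBC.

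edgeR called 0 of 9644 genes here (0%), with 721 at an unadjusted p under 0.05, and DESeq2 called 1746 genes (18.1%), 2 of them members. The median log2 difference was -0.10 over the members and 0.76 over all genes, with RLE size factors -0.34 and 0.58. Mrc1 had a log2 difference of 3.65 (95% interval 1.30 to 6.01, edgeR's adjusted p = 0.463) and was higher in DP in 5 of 5 samples. Its adjusted p was 0.0194 with no filter on low counts and 0.00139 in DESeq2. Adgre1 had a log2 difference of -1.33 (-2.52 to -0.15, adjusted p = 0.618), lower in 5 of 5 samples, and DESeq2 gave 0.0456. Spi1 was also lower in DP in 5 of 5 samples, with an interval across 0.

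The other intervals bound what these samples could have shown. They were -1.74 to 0.61 for Lyz2, -1.56 to 0.25 for Csf1r, -0.56 to 0.95 for Cd68, -0.86 to 1.09 for Ctss, -2.27 to 0.73 for Spi1, -1.68 to 1.47 for Ly86 and -2.31 to 6.35 for Aif1, as log2 differences of DP over WBC. For Cd68 and Ctss the sign turned with RLE size factors. Of marker genes of other leukocytes, 0 of 2 neutrophil, 0 of 7 B cell and 0 of 3 dendritic cell genes tested were called here. Cells led by a list of 9 neutrophil genes were 0 of the 154 tumor-low DP cells and 6 of the 42 tumor-low WBC. In lung the median summed level of the list was 14.6 CPM in both classes. The highest was 3114 CPM in a lung DP cell and 142626 CPM in a lung WBC, and Camp alone among its genes was at 0 in both. In blood the medians were 3.39 CPM in DP and 14.7 CPM in WBC. The part of neutrophil-led cells in the comparison was not tested.

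**Figure D2:**
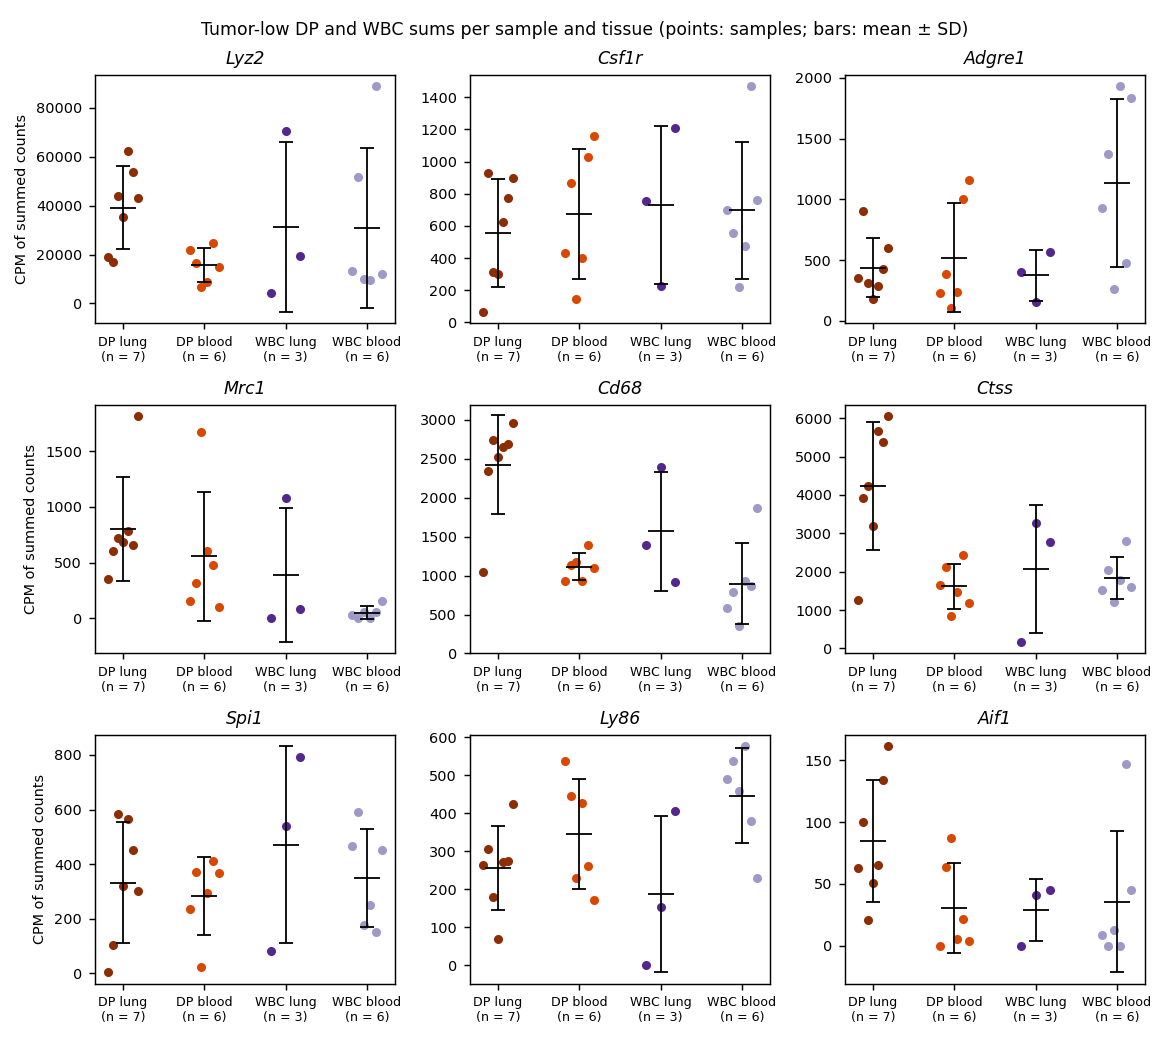
Level of each gene in the summed counts of tumor-low cells, as CPM, by class and tissue; points are samples and bars give the mean ± SD. Mrc1 lay between 103 and 1818 CPM in all DP sums and between 0 and 155 CPM in the 6 blood WBC sums, with the highest of the 3 lung WBC sums at 1085 CPM.

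Lung and blood were compared within tumor-low DP cells, over 7 lung and 6 blood sums. The lysosomal genes and lysozyme had the larger values in lung. Cd68 had 1048, 2656 and 2959 CPM in the lowest, median and highest lung sum, against 933, 1116 and 1395 CPM in blood. Ctss had 1253, 4237 and 6057 CPM in lung, against 839, 1567 and 2442 CPM in blood. Lyz2 had 16850, 43192 and 62395 CPM in lung, against 6862, 15556 and 24663 CPM in blood. Of the lung sums, those of replicates 1 and 2 for Lyz2 and of replicate 1 for Cd68 and Ctss lay within the range of the blood sums, and the others lay above it.

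Of 10026 genes 11 were called (0.11%; 0.0598% higher and 0.0499% lower in lung) and none of the 9 members, with 406 genes at an unadjusted p under 0.05, while DESeq2 called 1479 genes and no member. The log2 differences of lung over blood were 1.32 for Ctss (95% interval 0.22 to 2.42, edgeR's adjusted p = 0.994), 1.19 for Lyz2 (0.24 to 2.14, 0.939) and 1.16 for Cd68 (0.16 to 2.16, 1). Cd68 was higher in lung in 4 of 4 samples with both tissues, and Ctss and Lyz2 in 3 of 4. With no filter on low counts Lyz2 (adjusted p = 1.05e-11) and Ctss (0.0300) passed the threshold at nearly the same log2 differences, 1.28 and 1.40, and the cause of the change in p was not tested. With RLE size factors the members' median was 0.50 and that of all genes -0.15, against 0.91 and 0.15 above. The others had intervals across 0, at -1.65 to 1.48 for Csf1r, -0.58 to 2.40 for Adgre1, -0.64 to 2.01 for Mrc1, -3.61 to 2.76 for Spi1, -1.51 to 1.22 for Ly86 and -2.50 to 6.97 for Aif1.

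Marker genes of cell types move with tissue here. Plet1, an alveolar macrophage marker, was higher in lung by 14.39 ± 2.41 on the log2 scale (adjusted p = 0.0448) as the 1 called gene among 10 tested of its list. Another 3 genes, of other lists, named after their values were seen, were also called. In lung, the B cell genes Cd79b and Ms4a1 had log2 differences of -12.40 ± 1.64 (edgeR's adjusted p = 0.0178) and -12.29 ± 1.91 (0.0448), and the fibroblast gene Mgp 17.53 ± 1.27 (9.68e-05). The macrophage, monocyte and CSF1R lists had 0 of 13, 0 of 9 and 0 of 15 tested genes called. Of the 87 lung cells 41 were led by alveolar macrophage genes, against 0 of the 67 blood cells, and the part of this in the levels above was not tested.

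**Figure D3:**
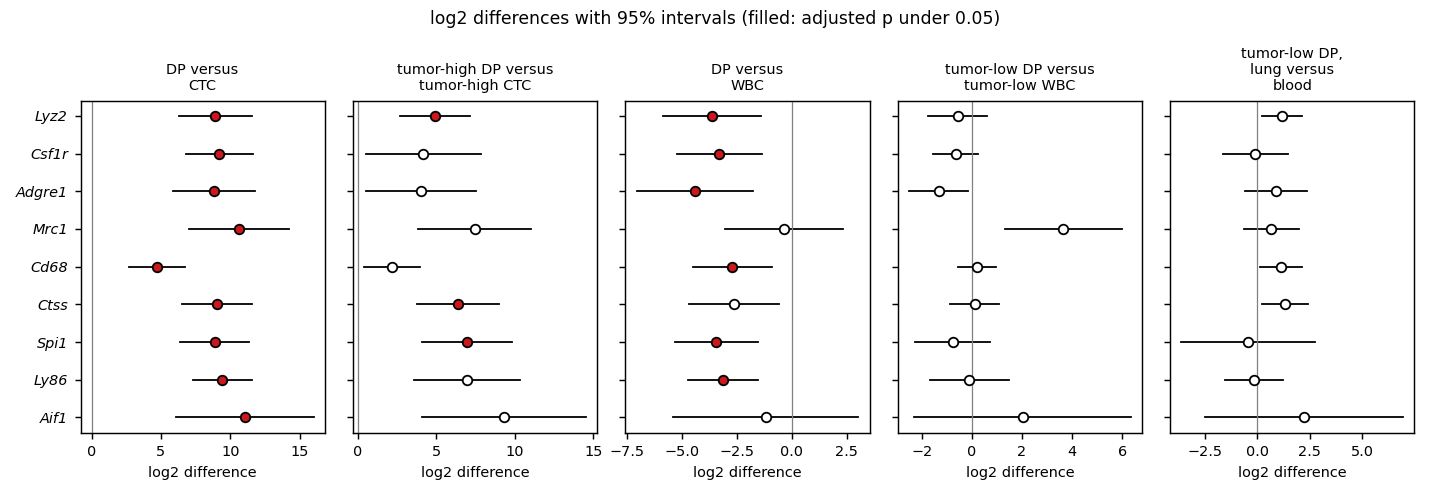
log2 differences with their 95% intervals for the 9 genes in 5 comparisons, positive where the first-named group was higher; filled points had an adjusted p under 0.05. The members were called in 9, 3, 6, 0 and 0 cases from left to right.

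Sums of tumor-high DP cells held more of some members than sums of CTC did, with wide spread between samples. The median cell held 0 members at 10 CPM or more in tumor-high DP and 1 in CTC. At least 1 member was in 45.3% of the 296 tumor-high DP cells and in 53.5% of the 43 CTC. Ctss had 10.7, 70.2 and 2503 CPM in the lowest, median and highest of 8 tumor-high DP samples (replicate 4 had 1 such cell and gave no sum), against 0.688, 0.339, 1.61, 1.39 and 5.37 CPM in the 5 CTC samples. Spi1 had 0.336, 17.2 and 94.3 CPM in tumor-high DP, against 0.197, 0.0643, 0.265, 0.195 and 0.0875 CPM in CTC. Lyz2 had 10.0, 187 and 8633 CPM in tumor-high DP, against 12.7, 2.74, 30.2, 18.2 and 2.44 CPM in CTC. Ctss and Spi1 did not overlap between DP and CTC samples, nor did Ly86 (lowest tumor-high DP sample 1.32 CPM, highest CTC sample 0.452 CPM), while the other 6 genes did. Over all genes tested, 94 of 12059 (0.78%) lay above CTC without overlap.

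edgeR called 80 of 12059 genes (0.663%), all higher in DP, among them 3 of 9 members. Spi1 was higher by 6.95 ± 1.33 on the log2 scale (adjusted p = 0.0270), Ctss by 6.39 ± 1.22 (0.0270) and Lyz2 by 4.95 ± 1.04 (0.0474). Mrc1 had a log2 difference of 7.45 (95% interval 3.87 to 11.04, adjusted p = 0.0620), Ly86 6.95 (3.57 to 10.33, 0.0655) and Aif1 9.31 (4.09 to 14.53, 0.120). The median over the members was 6.39, beside -0.04 over all genes. DESeq2 called all 9 members and 8.66% of all genes, and the fit with no replicate block called 7 members and 1.53% of all genes. Of the lists, Tyrobp (6.66 ± 1.11, adjusted p = 0.0146), Csf2rb (8.67 ± 1.70, 0.0300), the pore-forming gene Mpeg1 (7.94 ± 1.39, 0.0184) and the integrin gene Itgax (10.99 ± 1.84, 0.0170) were higher in DP.

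These calls depend on single samples, on tissue and on where the melanocyte range begins. The members' median log2 difference lay between 4.45 and 8.02 over all settings. None of the 9 was called without replicate 2 (median 6.16), without replicate 3 (6.09) or without replicate 5 (5.70), nor in blood cells alone (5.18) or with sums of at least 5 cells (6.86). Few genes of any kind were called in these fits: 3 of 12076, 28 of 12469 and 6 of 12199 without these replicates, in that order. The counts were 2 of 11948 in blood cells alone and 11 of 12872 with sums of at least 5 cells. With the range starting at 3000 CPM or at 10000 CPM no member was called (the 10000 CPM start was chosen after seeing the data), and the median log2 difference of the members was 5.51 and 4.45. Of all genes, 16 of 11910 and 4 of 11805 were called from these starts. Starting at 300 CPM, 5 members and 2.04% of all genes were called.

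Cells with many macrophage genes and a high melanocyte level were counted one by one. At least 5 of the 9 genes at 10 CPM or more were found in 31 of 296 tumor-high DP cells (10.5%, exact 95% binomial interval 7.23 to 14.5) and in 0 of 43 CTC, which allows up to 6.98% by a floor of 3 cells (exact upper limit 8.22%). The same held for 141 of 154 tumor-low DP cells (91.6%, 86.0 to 95.4) and 27 of 42 tumor-low WBC (64.3%, 48.0 to 78.4). Intervals here and below cover counting error only. With thinned counts the shares were 11.5%, 0%, 92.2% and 66.7% in the same order of groups.

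By ranges of the melanocyte level, chosen after seeing the data, the share in DP was 15 of 24 cells (62.5%, 40.6 to 81.2) at 1000 to 3000 CPM, 5 of 26 (19.2%, 6.55 to 39.4) at 3000 to 10000 CPM and 11 of 246 (4.47%, 2.25 to 7.86) at 10000 CPM or more, a range in which CTC had 0 of 42 (0 to 8.41). The 11 cells came from 6 samples, 5 of them from replicate 5. The 31 cells had a median depth of 5.26 Mcounts, against 19.1 Mcounts in the other 265 tumor-high DP cells. By sample, 9 of 13 tumor-high lung DP cells of replicate 5 belonged to the 31, and 0 of 30 blood and 0 of 1 lung DP cells of replicate 1. No doublet caller was run, and the part of pairs of cells sorted together was not tested.

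In the 11 DP cells at 10000 CPM or more, Lyz2 had a median of 1404 CPM (181 to 9421) and Ctss of 368 CPM (30.3 to 1604). Spi1 and Cd68 were at 10 CPM or more in 11 of 11, Csf1r and Ly86 in 10, Aif1 in 9, Mrc1 in 6 and Adgre1 in 4. Tumor-low DP cells had medians of 22437 CPM for Lyz2 and 2683 CPM for Ctss. Among control cells at 10000 CPM or more, at least 5 genes were found in 5 of 24 Duplike (20.8%, 7.13 to 42.2) and 5 of 17 CDP (29.4%, 10.3 to 56.0). B16F10 and PltLike had 0 of 22 each (0 to 15.4), and each control had 1 sample. In the 5 Duplike cells that met the count, all in the same melanocyte range, Aif1 was at 10 CPM or more in 0, Mrc1 in 2 and Adgre1 in 3. In the 5 such CDP cells Aif1 and Mrc1 were at this level in 0 and Adgre1 in 4.

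**Figure D4:**
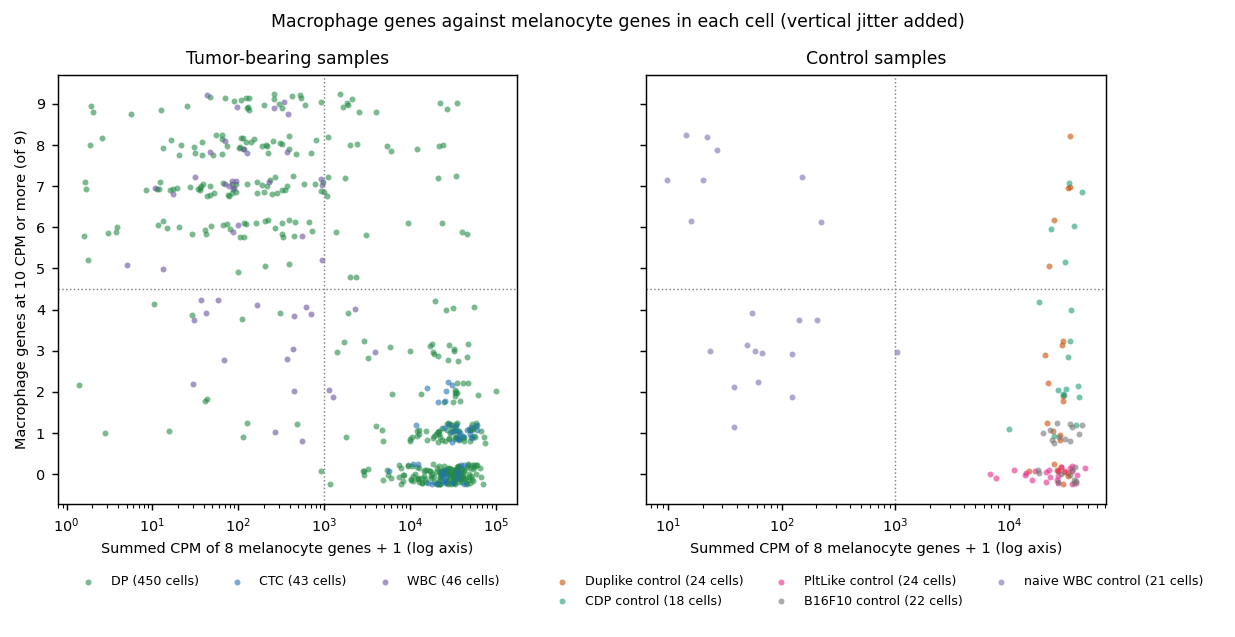
Number of macrophage genes at 10 CPM or more in each cell against the summed CPM of 8 melanocyte genes + 1 on a log axis, for tumor-bearing samples and controls, with vertical jitter. The upper right field, past 1000 CPM with at least 5 genes, holds 31 DP cells and 0 CTC on the left, and 5 Duplike and 5 CDP cells on the right.

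The controls had 1 sample each, so their levels carry counting error only and were not tested. Duplike cells had a median of 2.79 CPM of Lyz2 and a highest cell of 8506 CPM, with 7 of 24 cells (29.2%) at 10 CPM or more. CDP cells held Lyz2 more widely, in 13 of 18 cells (72.2%) with a median of 121 CPM, and Spi1 in 12 of 18 (66.7%) with a median of 22.9 CPM. Aif1 was at the level of single counts in both, with 5 counts in the Duplike sum and 1 in the CDP sum. PltLike cells held none of the 9 genes at 10 CPM or more in any of 24 cells, and Lyz2 was at 1.26 CPM in their sum (95% Poisson interval 1.16 to 1.37).

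Naive WBC, read at a lower depth, had Lyz2 in 20 of 21 cells (95.2%), Spi1 in 17 (81.0%) and Csf1r in 11 (52.4%). Mrc1 had 0 counts in naive WBC, where 3 counts would be 0.113 CPM, and 0 counts in B16F10, where 3 counts would be 0.00915 CPM. Of the naive WBC 8 of 21 (38.1%) held at least 5 of the 9 genes. The labels of Duplike, CDP and PltLike were taken as given, with no meaning assigned to them.

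Tumor-low cells were described by the marker list that led in each, using lists that hold no member. The macrophage list led in 115 cells (94 DP, 21 WBC), the alveolar macrophage list in 43 lung cells (41 DP, 2 WBC), the B cell list in 20 (10 DP, 10 WBC) and the neutrophil list in 6 WBC, and 12 cells were led by none. Alveolar macrophage-list cells had Lyz2 at a median of 52587 CPM and Mrc1 at 552 CPM, but Ly86 at 0.311 CPM, with Ly86 in 10 of 43 cells (23.3%) and Aif1 in 3 (6.98%). Macrophage-list cells had more Csf1r, with a median of 850 CPM, against 152 CPM in alveolar macrophage-list cells, and held Ly86 in 86 of 115 (74.8%). These are levels over cells from shared samples and were not tested.

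Among macrophage-list DP cells, Aif1 was at 10 CPM or more in 28 of 39 lung cells (71.8%, median 120 CPM) and in 11 of 55 blood cells (median 0 CPM). Csf1r had a median of 495 CPM in these lung cells and 1149 CPM in the blood cells, and Mrc1 of 678 CPM in lung and 128 CPM in blood. The cells came from 7 lung and 6 blood samples, and Aif1 was not called between lung and blood sums. The samples gave unequal numbers of cells. Of all 67 tumor-low blood DP cells 35 came from replicate 7, and of all 87 tumor-low lung DP cells 31 came from replicate 3. These shares and medians are over pooled cells and were not tested.

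In B cell-list cells Ctss, Spi1 and Ly86 were in 20 of 20 cells, and Ly86 had a median of 585 CPM, the highest of the 4 lists. Of the same 20 cells Lyz2 was in 18 (median 4371 CPM), Cd68 in 15, Csf1r in 12, Adgre1 and Mrc1 in 9 each and Aif1 in 3. PU.1, cathepsin S and MD-1 are also known in B cells. The 10 B cell-list DP cells, all from blood, carried a median of 7 members, and the 9 B cell-list WBC from blood a median of 4. Neutrophil-list WBC held Lyz2 in 6 of 6 cells (median 6074 CPM) and Spi1 in 5 of 6, and Csf1r, Mrc1, Ly86 and Aif1 in 0 of 6.

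**Figure D5:**
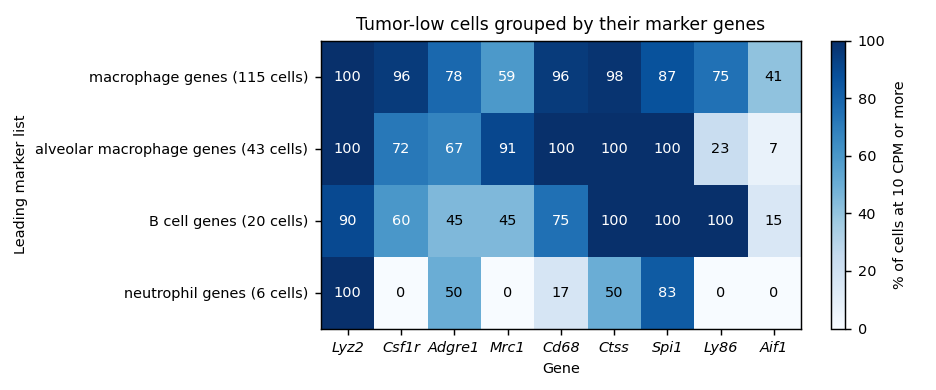
Percent of tumor-low cells with each gene at 10 CPM or more, by the marker list that led in the cell. Ly86 was in 75% of macrophage-list and 23% of alveolar macrophage-list cells, and Csf1r in 0% of neutrophil-list cells.

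Across 154 tumor-low DP cells the 36 pairs had a median Spearman rho of 0.16 (-0.16 to 0.60), and 31 were above 0. Lyz2 and Ctss were the most alike pair (rho 0.60), followed by Mrc1 and Ctss (0.53), and Spi1 and Aif1 the least (-0.16). In lung cells alone the median was 0.31 and in blood cells alone 0.15, and with Pearson correlation of log2(CPM + 1) over all 154 cells it was 0.32. Within the 6 samples with enough cells the median rho ran between 0.035 in replicate 7 (47 cells) and 0.62 in replicate 2 (15 cells), the other 4 lying between 0.098 and 0.15. These cells share samples and differ in depth, and the values are descriptions.

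Over 196 tumor-low DP and WBC cells, the gene among 7647 whose CPM ran most like each member's was Ctss for Lyz2 (Spearman rho 0.61), Itgam for Csf1r (0.61), Msr1 for Adgre1 (0.59), Ctss for Mrc1 (0.59), Lgals3 for Cd68 (0.67), Psap for Ctss (0.61), Ucp2 for Spi1 (0.44), Cd38 for Ly86 (0.51) and Apoe for Aif1 (0.55). Next in order came Ftl1-ps1 and Lyz1 for Lyz2, Cfp and Fcgr3 for Csf1r, Slc11a1 and Pf4 for Adgre1, Dab2 and Fcer1g for Mrc1, and Ftl1 and Ftl1-ps1 for Cd68. For the others they were Lyz2 and Mrc1 for Ctss, Fcgr4 and Csf2ra for Spi1, Unc93b1 and Ptpn18 for Ly86, and F13a1 and Ms4a6b for Aif1.

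Counting limits touch 2 members. Lyz2 (chr10:117277331-117282321, minus strand) lies beside Lyz1 (chr10:117287797-117292868), the lysozyme P gene of intestine, and their reference transcripts were identical at 1211 of 1262 aligned bases (96.0%), with a longest shared run of 118 bases, so reads could be split between them. Lyz1 took 1.11% of the 2 genes' counts in tumor-low DP, 0.106% in tumor-high DP and 1.63% in tumor-low WBC, and 20.8% in Duplike, where 1 cell gave 48.8% of the Lyz1 counts. Exons of Csf1r, on chromosome 18, share 873 bases (15.1%) with Hmgxb3 on the opposite strand, and whether strand was used in counting is not given in the sources used here.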

How the data were processed

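The submitters deposited raw counts per gene and cell, made with Trim Galore, HISAT2, SAMtools and featureCounts on mm10, per the submitters' processing notes, with no versions or strand setting stated there. Of the deposited nonzero counts 56.7% are even, and whether both reads of a fragment were counted is not stated. All 648 columns mapped to samples. Members and lists were chosen with earlier results of these data known.

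CPM was computed from the deposited counts with no filter on cells and no doublet removal. Counts were summed per sample, tissue, class and melanocyte range over at least 2 cells, and tested with edgeR 4.0.16 in R 4.3.3 (TMM scaling, filterByExpr, quasi-likelihood test) with tissue and the replicate as block, with p-values adjusted by Benjamini-Hochberg across every gene tested. The block was used because classes share a sample. Deviations of class sums of the same sample had a median correlation of 0.02 over 41 pairs (-0.07 to 0.22), against -0.00333 over 246 pairs of different samples. Comparisons of classes share samples. DESeq2 1.42.0 was an alternative. Shares have exact binomial 95% intervals. On simulated counts of these designs the test recovered most very large changes and few modest ones. That simulation gave every gene the same dispersion and no sample or tissue effect, so its rates need not hold for these data. A gene that was not called may still differ.

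Genes named beyond the 9 are the paralog Lyz1, the 3 genes most correlated with each member among genes at 10 CPM or more in at least 10% of tumor-low cells, and up to 4 called genes of smallest p in the macrophage, monocyte, alveolar macrophage and CSF1R lists. Cd79b, Ms4a1, Mgp and Camp were named after their values were seen. The lists hold 112 genes in 14 lists, 111 of them in the table. A cell was led by the list (neutrophil, B cell, T and NK cell, alveolar macrophage or macrophage) with the largest share of its genes at 10 CPM or more, with at least 3 such genes and no tie.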

Additional observations from a re-analysis of the deposited data

Results flagged for a closer look

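In 17 of 54 groups of 4 to 10 samples, 1 sample lay far from the others. A chance rate of about 1 in 20 groups assumes normally distributed levels and independent groups. CPM levels here can be skewed, and the groups are genes measured in the same sums. The count of 17 therefore cannot be read as an excess over chance. The values are the CPM of a sample's sum and of its nearest neighbour in the group. The causes were not tested.

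Among tumor-low DP lung sums, Mrc1 was 1818 CPM in replicate 8 (3 cells) with the next at 786 CPM, and Cd68 was 1048 CPM in replicate 1 with the next at 2341 CPM. Among tumor-low DP blood sums, Mrc1 was 1673 CPM in replicate 3 (2 cells) with the next at 603 CPM. Among tumor-low WBC blood sums, Mrc1 was 155 CPM in replicate 6 with the next at 57.6 CPM, and Aif1 was 147 CPM in replicate 5 with the next at 45.1 CPM.

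In tumor-high DP lung sums replicate 5 stood apart in Csf1r (326 CPM, next 7.70 CPM), Ly86 (154 CPM, next 4.07 CPM) and Aif1 (72.8 CPM, next 7.14 CPM), and replicate 2 in Ctss (4928 CPM, next 1041 CPM). In tumor-high DP blood sums replicate 2 stood apart in Lyz2 (678 CPM, next 268 CPM) and Aif1 (4.08 CPM, next 1.42 CPM), and replicate 9 in Adgre1 (6.74 CPM, next 1.48 CPM).

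In CTC blood sums the values rest on 5 counts for Mrc1 to 552 counts for Ctss. Replicate 1 was highest in Adgre1 (0.570 CPM, next 0.117 CPM), Mrc1 (0.0983 CPM, next 0.0234 CPM), Spi1 (0.197 CPM, next 0.0875 CPM) and Ly86 (0.452 CPM, next 0.117 CPM), and replicate 6 in Ctss (5.37 CPM, next 0.688 CPM).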

How the results depend on the processing

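Numbers of called genes moved by over 1.5 times under these alternatives. In DP against CTC they were 1469 with DESeq2, 160 with 5 or more cells a sum, 336 in blood alone and 80 in lung alone, and in CTC against WBC 5828, 1281 and, in lung alone, 101. In DP against WBC they were 5280 with DESeq2, 294 with 5 or more cells a sum and 0 in lung alone, the last 2 settings calling 0 members. In tumor-low DP against tumor-low WBC they were 17 with no filter (1 member), 1746 with DESeq2 (2 members) and 1 in lung alone. For lung against blood they were 139 with no filter (2 members), 1479 with DESeq2, 17 with no replicate block, 64 with 5 or more cells a sum, 33 with the melanocyte range starting at 300 CPM and 17 at 3000 CPM. In tumor-high DP against CTC they were 1044 with DESeq2 (9 members), 185 with no replicate block (7), 11 with 5 or more cells a sum (0), 2 in blood alone (0), 25 in lung alone (2), 247 from 300 CPM (5), 16 from 3000 CPM (0) and 4 from 10000 CPM (0). Leaving out the replicate block also moved the genes lower in DP than in WBC to 838, against 366 with it.

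Leaving out 1 replicate at a time gave 361 to 725 genes and 8 to 9 members for DP against CTC, 1599 to 2580 and 2 to 7 for DP against WBC, 2387 to 3343 and 9 for CTC against WBC, 0 to 1 and 0 for tumor-low DP against WBC, 3 to 62 and 0 for lung against blood, and 3 to 87 and 0 to 5 for tumor-high DP against CTC.

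Signs of log2 differences turned as follows, for reasons not tested. In DP against WBC in lung alone, Lyz2 was 0.24, Adgre1 0.047, Mrc1 2.19, Cd68 0.24, Ctss 0.86 and Aif1 0.89, and Mrc1 ranged from -1.32 to 0.50 with 1 replicate left out. In tumor-low DP against WBC, Lyz2 was 1.28 with 5 or more cells a sum, 0.80 in lung and 0.18 from 300 CPM, Adgre1 0.10 in lung, Cd68 -0.018 with RLE and with DESeq2, Spi1 0.44 with 5 or more cells a sum and Aif1 -0.13 in blood. Ctss was -0.12 with RLE and with DESeq2, -0.25 in blood and -0.082 from 3000 CPM, and ranged from -0.17 to 0.38 with 1 replicate left out. Ly86 was 1.01 with 5 or more cells a sum, 1.06 in lung and 0.021 from 300 CPM, and ranged from -0.41 to 0.076. In lung against blood, Csf1r was 0.0053 with no filter, 0.12 with no replicate block and 0.29 with 5 or more cells a sum (-0.62 to 0.64 with 1 replicate left out), Spi1 0.55 with no replicate block (-1.88 to 1.00), and Ly86 0.21 with 5 or more cells a sum (-0.34 to 0.087).

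With 7 members asked for in place of 5, the share was 68.8% of tumor-low DP cells, and with 3 it was 18.2% of tumor-high DP cells and 90.5% of tumor-low WBC. With 5 members the share of tumor-high DP cells was 19.0% from 300 CPM and 5.88% from 3000 CPM, ranges chosen for this share after seeing the data. Few cells per sum, a wide range of depth and 1 sample for each control limit all these values.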

Other observations

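Marker lists of other cell types were measured in the same sums, and their part in the members' results was not tested. Between DP and CTC, where the median log2 difference over all genes was 0.21, edgeR called as higher in DP 3 of 4 tested platelet genes, 3 of 5 dendritic cell genes, 2 of 6 neutrophil genes, 1 of 7 B cell genes and the 1 erythroid gene tested. None of 3 lung epithelium, 4 fibroblast and 2 endothelium genes was called, and no T and NK cell gene passed the filter on low counts. The 8 melanocyte genes had a median log2 difference of -1.03 with none called.

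Between DP and WBC all 8 melanocyte genes were higher in DP, with a median log2 difference of 5.97. Of the leukocyte lists, 2 of 7 B cell genes and 1 of 6 neutrophil genes were lower in DP, while the platelet, dendritic cell and alveolar macrophage lists each had 1 gene higher and 1 lower. In tumor-high DP against CTC, 1 of 3 tested platelet genes was higher in DP, and 0 of 7 B cell, 0 of 4 neutrophil and 0 of 8 melanocyte genes were called. The same 8 melanocyte genes set the cut for both groups, so their count is not a free observation.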
